A study of Mus musculus with 4 samples.

Results

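The endoplasmic reticulum (ER) folds and quality-checks every secreted protein of a cell. The 49 genes described here encode that machinery: chaperones, disulfide isomerases, the sensors of the unfolded protein response (UPR), and ER-associated degradation (ERAD). They were chosen by name for their roles, with no threshold on their values but with earlier results of these data known, and all 49 were found once each among the 56748 genes of the count table and passed the filter on low counts. RNA from primary pancreatic islets of male C57BL/6J mice aged 6 to 8 weeks was sequenced after 2 h at 25 mM glucose (2 libraries) or at 2.5 mM glucose (2 libraries). Islets of both groups had first been pre-incubated without glucose, so 2.5 mM is not an untreated baseline, and both groups received cycloheximide, which blocks translation, at 100 μg/mL for the last 15 min. The study's methods describe islets of several mice pooled for each biological replicate and RNA taken from the same culture conditions. Wherever 2 values of a group are given, replicate 1 precedes replicate 2.

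In the ER lumen, Hsp70- and Hsp90-type chaperones hold unfolded chains, lectin chaperones retain glycoproteins until they are folded, and isomerases of the PDI family, re-oxidised by ERO1, form disulfide bonds. Proinsulin needs such bonds to fold, and the beta cell makes it in large amounts. When unfolded protein accumulates, IRE1 splices Xbp1 mRNA and ATF6 is released by proteolysis in the Golgi. Both then raise transcription of chaperone and ERAD genes, many of which carry an ER stress response element (ERSE) in the promoter. PERK, another sensor, acts through phosphorylation of eIF2α. Chains that fail to fold are trimmed by EDEM proteins, passed to the SEL1L-SYVN1 ubiquitin ligase and degraded.

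The ERSE is shown first because it ties many of the folding genes to the UPR sensors. It was searched on both strands, as CCAAT and CCACG separated by 9 bases, in RefSeq promoter windows of build GRCm38.p6 that run from 250 bases before to 50 bases after each start site. Of the 49 genes, 42 had a window, and 10 of these (23.8%) carried an ERSE, against 0.119% of all 32851 windows and 0.137% of 27025 genes. The genes were chosen by name for folding and UPR roles, so this share describes the list and is no test. The sites of the most abundant carriers and of Syvn1, the only carrier with a log2 fold change above 0.5, are printed in the orientation that reads CCAAT first. The 5 outer bases at each end of the element are in capitals, 10 bases of flank are included on either side, and positions of the middle count from the start site:
Hspa5 (chr2:34772015-34772053, middle at -56): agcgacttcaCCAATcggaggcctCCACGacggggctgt
Hsp90b1 (chr10:86705523-86705561, middle at -98): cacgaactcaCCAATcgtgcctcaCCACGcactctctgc
Hsp90b1 (chr10:86705628-86705666, middle at -203): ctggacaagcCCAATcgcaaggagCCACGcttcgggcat
Calr (chr8:84847065-84847103, middle at -153): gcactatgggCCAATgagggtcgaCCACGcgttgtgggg
Canx (chr11:50325790-50325828, middle at -136): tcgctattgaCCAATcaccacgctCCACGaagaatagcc
Pdia6 (chr12:17266481-17266519, middle at -89): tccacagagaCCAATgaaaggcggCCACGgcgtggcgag
Ero1b (chr13:12565672-12565710, middle at -192): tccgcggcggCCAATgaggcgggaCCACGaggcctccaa
Syvn1 (chr19:6046522-6046560, middle at -35): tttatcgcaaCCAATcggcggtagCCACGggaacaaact

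Hsp90b1 was the carrier with 2 sites, and Creld2, Derl3 and Dnajc3 held the remaining ones. A compact form, ERSE-II (ATTGG and CCACG, 1 base apart), was present in the windows of Herpud1 and Dnajb11, against 0.0365% of all windows. The Herpud1 site is printed because Herpud1 is the ERSE-II gene with the larger difference between glucose levels:
Herpud1 (chr8:94386367-94386397, middle at -47): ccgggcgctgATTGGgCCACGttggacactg
The XBP1-type element TGACGTGG was found in Txndc5 and Txndc11, against 0.676% of all windows. These are matches of letters and do not show binding. The 10 ERSE carriers were expressed at a median of 201 RPKM (reads per kilobase of exon, scaled to library size), against 36.1 RPKM in the 32 matched genes without it. Their median log2 fold change was 0.02, against 0.10 in those 32 genes.

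The 4 libraries held 17279505 to 19136068 counts, and the 49 genes together took 2.07% and 1.83% of them at 25 mM, against 2.12% and 1.93% at 2.5 mM. Their 95% Wilson intervals were 2.06% to 2.07% and 1.83% to 1.84% at 25 mM, against 2.11% to 2.13% and 1.92% to 1.94% at 2.5 mM. These intervals measure counting error alone and leave out the spread between libraries. They may be too narrow even for that, because amplified reads lacking molecular identifiers need not be independent. Insulin transcripts took 7.61% and 16.1% of counts at 25 mM, against 7.03% and 9.21% at 2.5 mM, and all 10 islet endocrine markers listed were detected. The 25 mM replicate 2 library stood apart from the rest: over the 49 genes its log2 levels correlated with the other libraries at 0.919 to 0.949, against 0.975 to 0.989 among the others. Summed stellate and fibroblast markers (6 genes) followed the replicate number, with 479 and 118 CPM (counts scaled to library size) at 25 mM against 515 and 89.1 CPM at 2.5 mM. Endothelial markers (6 genes) did so as well, with 60.4 and 171 CPM at 25 mM against 52.7 and 186 CPM at 2.5 mM. Acinar markers (14 genes) were highest in 25 mM replicate 1, with 725 and 332 CPM at 25 mM against 322 and 372 CPM at 2.5 mM. No gene of these lists was at 0 in all libraries, and the part of such cells in the results was not tested. In bulk RNA, fewer cells of a type and less RNA per cell cannot be told apart.

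Per length, the levels of the 49 genes spanned 211-fold, and 6 of them (Hspa5, Calr, P4hb, Pdia3, Hsp90b1 and Pdia6) made up 49.7% of the summed RPKM. Luminal folding proteins filled the top of the order, and Mbtps2, Dnajc1, Derl3 and Crebrf were the lowest. Between the highest and the lowest library the CPM differed by less than 1.5-fold in 25 of the 49 genes and by more than 2-fold in 8. The plot of levels by library shows the order within each role.

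**Figure D1:**
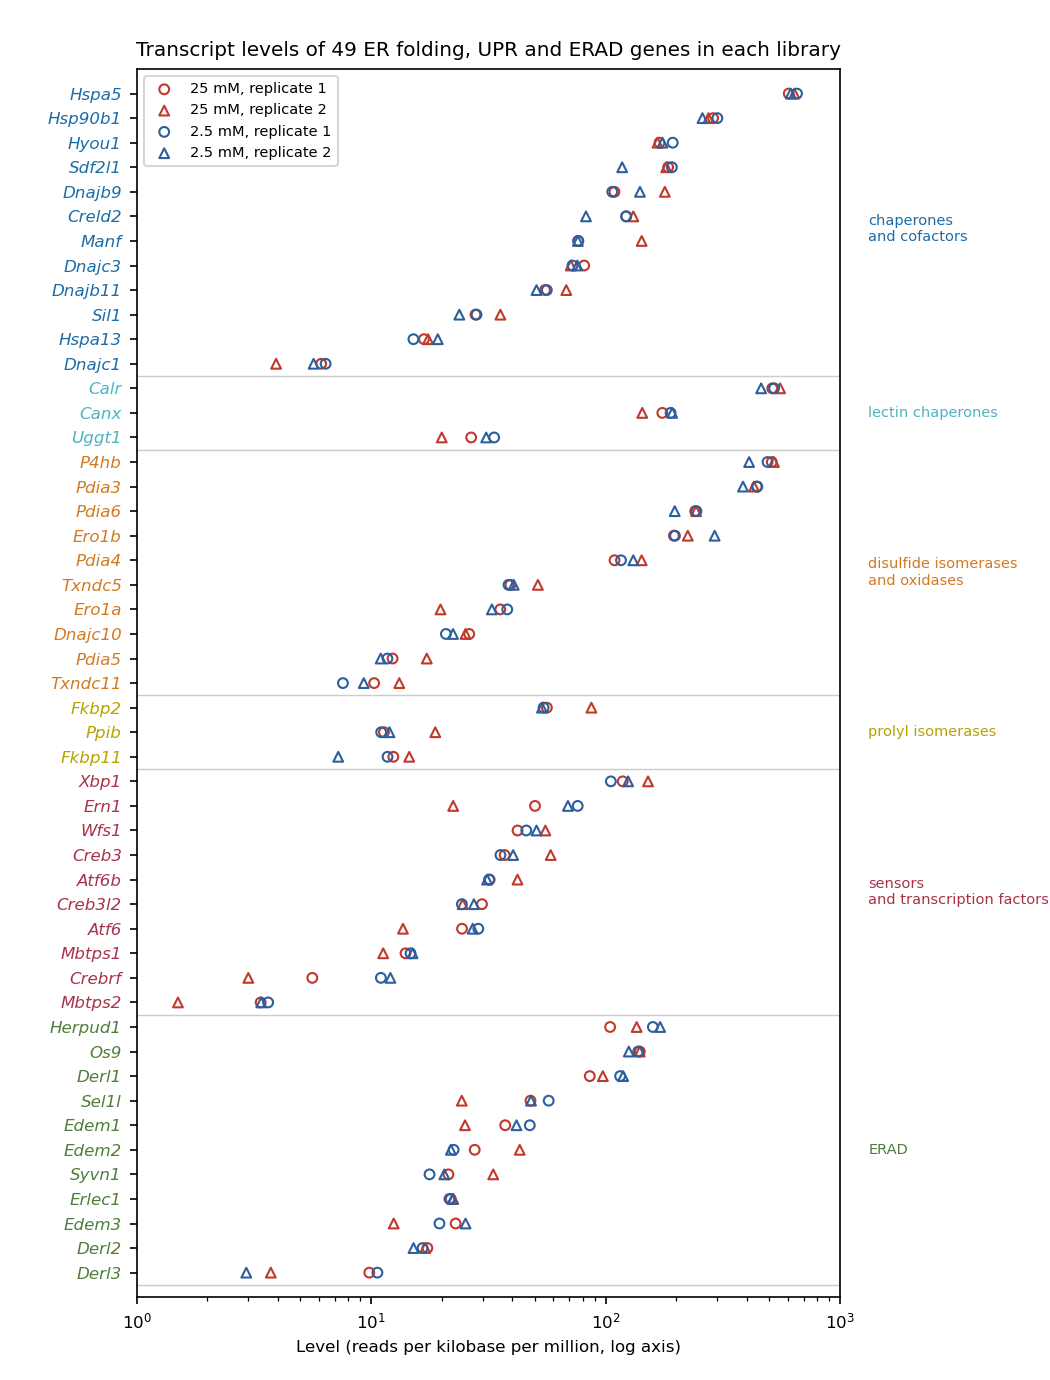
Level of each of the 49 genes in the 4 libraries, in RPKM on a log axis, ordered within each role by the mean. Hspa5 leads at a mean of 629 RPKM and Mbtps2 is lowest at 2.98 RPKM. The 25 mM replicate 2 triangles lie apart from the other 3 symbols in several long genes such as Ern1, Atf6 and Mbtps2.

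Setting 25 mM against 2.5 mM glucose addresses whether transcripts of the ER folding and surveillance machinery differ after 2 h of stimulation. For 46 of 49 genes, all chaperones and isomerases among them, the log2FC was under 0.58 in size. The exceptions were Crebrf and Ern1, lower at 25 mM, and Edem2, higher. Compared without a block, 0 of 49 passed an adjusted p of 0.05 in edgeR, and 0 of 15665 tested genes did (background 0%). An unadjusted p under 0.05 was reached by 3 members, Edem2 higher and Ern1 and Crebrf lower, against 10.5% of all genes. The same 3 met the thresholds that the study used, an absolute log2FC over 0.58 with unadjusted p under 0.05, against 9.95% of all genes. Both 25 mM libraries lay above both 2.5 mM libraries for 12 members and below for 12, against 22.4% and 25.9% of all genes. The share of separated members was near this background. The median log2FC of the members was 0.07, against -0.01 over all genes, and the median absolute log2FC was 0.25, against 0.33.

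With the replicate number as a block, a fit that reads same-numbered libraries as pairs, 2 members passed, both lower at 25 mM: Crebrf and Ern1. The background of that fit was 6.86% of all genes. DESeq2 without a block passed 1 member, Crebrf, against 1.62% of genes with an adjusted p. With the block included and the trend of the ratio with gene length subtracted, 5 passed (Crebrf, Ern1 and Herpud1 lower, Txndc11 and Edem2 higher), against 8.71%. Without 25 mM replicate 1, where the stimulated group rests on the library that stood apart, 17 passed, against 20.0% of all genes: Crebrf, Ern1, Mbtps2, Sel1l, Atf6, Edem3, Ero1a, Edem1, Uggt1 and Dnajc1 lower, and Edem2, Manf, Syvn1, Ppib, Fkbp2, Txndc11 and Creb3 higher. That fit has 1 library at 25 mM, which is assumed to vary like the 2.5 mM pair that supplies the spread, so these calls carry no replicate check at 25 mM. Without a filter on low counts 2 passed (Crebrf and Ern1), against 2.29%, and DESeq2 with the block passed 2 (Crebrf and Ern1), against 2.14%.

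The intervals set a limit on what could have gone unseen. In the unblocked fit, the 95% interval of log2FC lay within 1 unit of 0, a factor of 2, for 33 of 49 members, and within the study's fold threshold for 10. With the block 39 lay within 1 unit. Within same-numbered libraries the ratios were small in replicate 1 (members' median -0.01, interquartile range -0.11 to 0.06) and wider in replicate 2 (0.15, interquartile range -0.38 to 0.43). Over all genes the interquartile range was -0.25 to 0.18 in replicate 1 and -0.54 to 0.47 in replicate 2. The ratios had the same sign in both replicate numbers for 33 members, 18 higher and 15 lower. Of all 15665 genes tested, 5047 were higher and 5624 lower in both, and the members were not tested against this background.

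**Figure D2:**
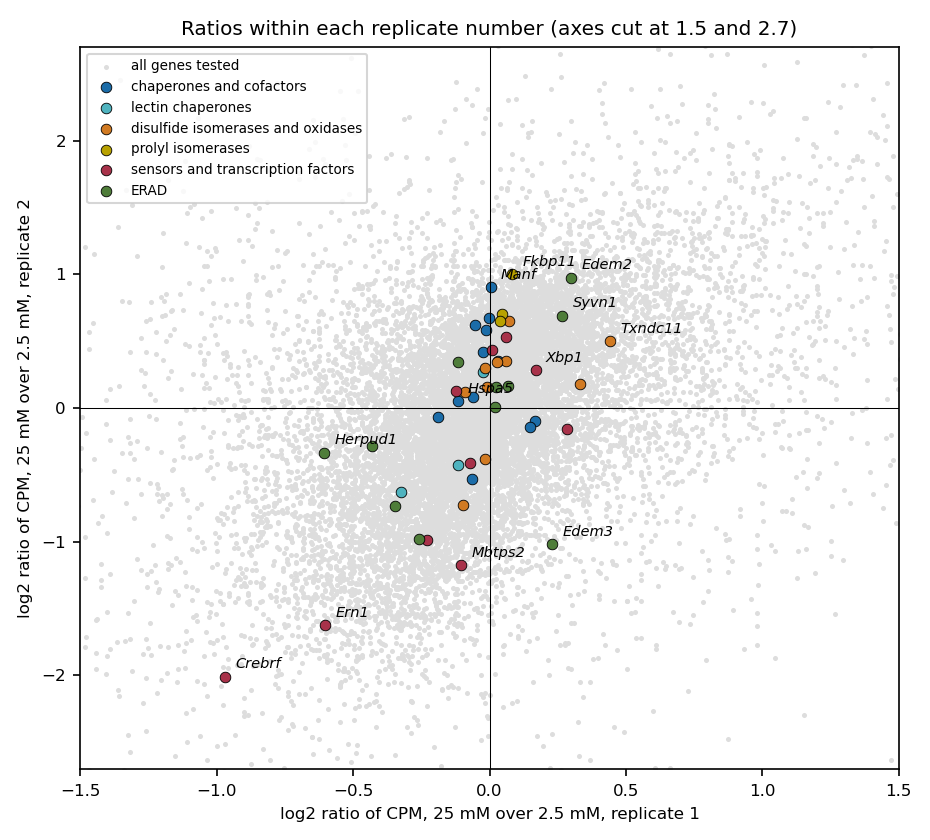
Log2 ratio of CPM at 25 mM over 2.5 mM in replicate 1 (x axis) and replicate 2 (y axis), with the 49 genes coloured by role over all genes tested in grey. Most members lie in a narrow band around 0 on the x axis and spread along the y axis, while Crebrf and Ern1 lie low on both axes and Edem2 and Txndc11 high on both.

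Among the 12 chaperones and cofactors 0 passed with or without the block, and the median log2FC was 0.12. Hspa5, which encodes BiP, the main Hsp70 of the ER (ENSMUSG00000026864, chromosome 2, 34661982 to 34667559 in the table), had 2556 and 2702 CPM at 25 mM, against 2773 and 2607 CPM at 2.5 mM (log2FC = -0.03, 95% interval -0.49 to 0.42, adjusted p = 0.961). Hsp90b1, which encodes GRP94, had 1159 and 1108 CPM at 25 mM, against 1209.6 and 1045 CPM at 2.5 mM (log2FC = 0.01, 95% interval -0.47 to 0.48, adjusted p = 0.992). The 25 mM and 2.5 mM libraries overlapped for both, and their intervals leave out a change of 1.5-fold in either direction. Per length, Hspa5 stood 2.10- and 2.32-fold above Hsp90b1 at 25 mM, against 2.19- and 2.38-fold at 2.5 mM, with replicate 2 the higher in both groups. Hyou1, an Hsp110-type exchange factor for BiP, had 1228 and 1205 CPM at 25 mM, against 1399 and 1265 CPM at 2.5 mM. Its 25 mM libraries were both the lower ones, but the interval of its log2FC of -0.13 spanned 0. With the trend of the ratio with gene length removed and no block, its log2FC was 0.11.

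Of the J-domain partners of BiP 0 passed with or without the block. Dnajc3, which encodes p58IPK, had a log2FC of 0.04, Dnajb11 (ERdj3) 0.20, Dnajb9 (ERdj4) 0.22 and Dnajc1 (ERdj1) -0.26. Dnajb9 had 278 and 456 CPM at 25 mM, against 272 and 358 CPM at 2.5 mM. Its log2FC was -0.17 without 25 mM replicate 2 and 0.54 without 25 mM replicate 1. Dnajc1 had 71.4 and 45.9 CPM at 25 mM, against 74.6 and 66.3 CPM at 2.5 mM, with 25 mM replicate 2 the low library. The gene span of Dnajc1 overlaps that of Mllt10 on the opposite strand, which has 73.9% as many reads over its whole gene. Overlaps here and below compare whole gene spans and total reads, and reads within the shared stretch were not counted. The strand setting of the counting is not given in the sources used here. Hspa13, an atypical Hsp70, had -0.0044 and Sil1, an exchange factor for BiP, 0.29.

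Manf, a small secreted protein known as a target of the UPR, had the highest log2FC of the chaperone group. It had 269.9 and 503 CPM at 25 mM, against 269 and 269 CPM at 2.5 mM (log2FC = 0.52, 95% interval -0.20 to 1.25, adjusted p = 0.547). A single library, 25 mM replicate 2, was high, the other 3 were nearly equal, and without that library the log2FC was 0.02. Manf also overlaps Rbm15b (30.7% as many reads, same strand) and Dcaf1 (19.9%, opposite strand) in the table, so its count is uncertain. Creld2, another secreted UPR target, had 167 and 179.5 CPM at 25 mM, against 167 and 113 CPM at 2.5 mM, with 2.5 mM replicate 2 the low library. Sdf2l1, which works with ERdj3, had 205 and 201 CPM at 25 mM, against 213 and 130.5 CPM at 2.5 mM, and the same library was the low one. Neither passed (log2FC = 0.31 and 0.24).

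Of the 3 lectin chaperone genes 0 passed. Calr, calreticulin, had 1481 and 1599 CPM at 25 mM, against 1508 and 1328 CPM at 2.5 mM (log2FC = 0.12, 95% interval -0.35 to 0.59, adjusted p = 0.835), and its groups overlapped. Canx, its membrane-bound relative, had 820.0 and 673 CPM at 25 mM, against 889 and 903 CPM at 2.5 mM (log2FC = -0.26, adjusted p = 0.628). Uggt1, which re-tags misfolded glycoproteins for another round, had 344 and 257 CPM at 25 mM, against 431 and 398 CPM at 2.5 mM (log2FC = -0.46, adjusted p = 0.501). Both 25 mM libraries lay below both 2.5 mM libraries for Canx and for Uggt1. The exonic length of Uggt1 is 12853 bases, and its log2FC was -0.01 after adding the block and removing the length trend.

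The 10 disulfide isomerases and oxidases had a median log2FC of 0.17, and 0 passed with or without the block. P4hb, which encodes PDI itself, had 1464 and 1495 CPM at 25 mM, against 1404 and 1172 CPM at 2.5 mM (log2FC = 0.20, 95% interval -0.28 to 0.68, adjusted p = 0.712). Pdia3, the partner of the lectin chaperones, had 1385 and 1349 CPM at 25 mM, against 1394 and 1211 CPM at 2.5 mM, and Pdia6 had 903 and 911 CPM at 25 mM, against 915 and 739 CPM at 2.5 mM. In each of these 3 genes 2.5 mM replicate 2 was the lowest library and the other 3 lay together. Among further PDI-family members, Pdia4 had a log2FC of 0.02, Txndc5 (ERp46) 0.20, Pdia5 0.38 and Dnajc10, a J protein that reduces disulfides for degradation, 0.25.

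Txndc11, a membrane-bound thioredoxin-domain protein, had 91.1 and 117 CPM at 25 mM, against 67.1 and 82.3 CPM at 2.5 mM (log2FC = 0.48, 95% interval -0.07 to 1.03, adjusted p = 0.502). Both 25 mM libraries were higher, with log2 ratios of 0.44 in replicate 1 and 0.50 in replicate 2. It passed with the block included and the length trend subtracted (log2FC = 0.79, adjusted p = 0.00305). Its gene span overlaps that of Snn on the opposite strand, which has 10.8% as many reads over its whole gene.

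The ERO1 oxidases differed in level. Ero1b, the form abundant in islets, had 196 and 224 RPKM at 25 mM, against 198 and 292 RPKM at 2.5 mM. Ero1a, the widely expressed form, had 35.6 and 19.8 RPKM at 25 mM, against 38.1 and 32.8 RPKM at 2.5 mM. Per length Ero1b thus stood 5.50- and 11.3-fold above Ero1a at 25 mM, against 5.19- and 8.91-fold at 2.5 mM, a ratio that varied more with the replicate number than with glucose. In CPM, Ero1a had 188 and 105 CPM at 25 mM, against 201 and 173 CPM at 2.5 mM (log2FC = -0.36, adjusted p = 0.656), with 25 mM replicate 2 the low library. Without it the log2FC was 0.02. Ero1b had 1302 and 1492 CPM at 25 mM, against 1316 and 1943 CPM at 2.5 mM (log2FC = -0.22, adjusted p = 0.739), with 2.5 mM replicate 2 the high library.

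Prolyl isomerases turn the bonds before proline, a slow step of folding. All 3 of their genes had a log2FC above 0, and 0 of 3 passed. Fkbp2 had 92.2 and 143 CPM at 25 mM, against 89.3 and 87.9 CPM at 2.5 mM (log2FC = 0.41, 95% interval -0.20 to 1.02, adjusted p = 0.567). Ppib, cyclophilin B, had 37.5 and 62.1 CPM at 25 mM, against 36.5 and 39.6 CPM at 2.5 mM (log2FC = 0.39, adjusted p = 0.608), and Fkbp11 had 33.7 and 39.4 CPM at 25 mM, against 31.8 and 19.6 CPM at 2.5 mM (log2FC = 0.51, adjusted p = 0.538). For Fkbp2 and Ppib 25 mM replicate 2 was the high library, and without it the log2FC was 0.07 and -0.01.

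The 10 genes of UPR sensing held both members that passed with the block. Crebrf encodes a regulator of the ER-anchored transcription factor CREB3 (ENSMUSG00000048249, chromosome 17, 26934624 to 26995609 in the table). It had 48.1 and 25.7 CPM at 25 mM, against 94.4 and 104 CPM at 2.5 mM, a mean of 36.9 ± 15.9 CPM in the 25 mM libraries and 99.0 ± 6.54 CPM in the 2.5 mM ones (SD, n = 2 each). The groups did not overlap, and the log2 ratios were -0.97 in replicate 1 and -2.01 in replicate 2. Compared without a block it had log2FC = -1.42, 95% interval -2.17 to -0.67, adjusted p = 0.400. It fell with the block (log2FC = -1.49, adjusted p = 4.71e-05) and in DESeq2 (log2FC = -1.41, adjusted p = 0.00348). Without 25 mM replicate 2 the log2FC was -1.03 (adjusted p = 0.242). Over all alternatives the adjusted p of Crebrf ran over 1.92e-06 to 0.620.

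Ern1 encodes IRE1α, the kinase and endonuclease that splices Xbp1 mRNA (ENSMUSG00000020715, chromosome 11, 106285476 to 106378678 in the table). It had 409 and 183 CPM at 25 mM, against 622 and 565 CPM at 2.5 mM, a mean of 296 ± 159.7 CPM in the 25 mM libraries and 594 ± 40.2 CPM in the 2.5 mM ones (SD, n = 2 each). Both 25 mM libraries were below both 2.5 mM libraries, by log2 ratios of -0.60 in replicate 1 and -1.63 in replicate 2. It fell with the block (log2FC = -1.11, adjusted p = 0.00110), but did not pass in the unblocked edgeR fit with the filter on low counts (log2FC = -1.0, 95% interval -1.87 to -0.14, adjusted p = 0.451) nor in DESeq2 without the block (adjusted p = 0.109). It did pass unblocked with no such filter (adjusted p = 0.00629) and in DESeq2 with the block (adjusted p = 0.0284). Its size depended on 1 library: the unblocked log2FC was -1.69 (adjusted p = 0.00187) without 25 mM replicate 1 and -0.53 (adjusted p = 0.559) without 25 mM replicate 2. Over all alternatives the adjusted p of Ern1 ran over 3.06e-04 to 0.933. Exonic lengths are 8564 bases for Crebrf and 8173 for Ern1. With the block included and the length trend subtracted both passed, with log2FC of -1.18 (adjusted p = 1.92e-06) and -0.83 (adjusted p = 3.06e-04). With that trend subtracted and no block 0 members passed, and the part of length was not tested.

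Xbp1, the substrate of IRE1α and the sensing gene with the highest level per length (a mean of 125 RPKM, against 54.4 RPKM for Ern1), had 385 and 493 CPM at 25 mM, against 342 and 406 CPM at 2.5 mM (log2FC = 0.23, 95% interval -0.30 to 0.76, adjusted p = 0.698). Its groups overlapped, and gene counts do not separate the spliced form from the unspliced. Per length, Ern1 stood at 0.423 and 0.148 of Xbp1 at 25 mM, against 0.722 and 0.554 at 2.5 mM. The exonic length is 8173 bases for Ern1 and 3248 for Xbp1. Atf6 had 226 and 126 CPM at 25 mM, against 265 and 251 CPM at 2.5 mM (log2FC = -0.55, adjusted p = 0.527), with log2 ratios of -0.23 in replicate 1 and -0.99 in replicate 2. Its paralog Atf6b had 88.4 and 116 CPM at 25 mM, against 87.9 and 86.2 CPM at 2.5 mM (log2FC = 0.23, adjusted p = 0.694). The 25 mM libraries lay below for Atf6 and above for Atf6b, but without 25 mM replicate 2 the log2FC was -0.18 and 0.03. The exonic length is 9231 bases for Atf6 and 2757 for Atf6b.

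The proteases that release ATF6 in the Golgi did not pass. Mbtps1 (site-1 protease) had a log2FC of -0.23. Mbtps2 (site-2 protease) had 34.2 and 15.2 CPM at 25 mM, against 36.8 and 34.4 CPM at 2.5 mM (log2FC = -0.53, adjusted p = 0.597). The 25 mM replicate 2 library alone was low for Mbtps2, and its log2FC was -0.05 without 25 mM replicate 2 and -1.23 without 25 mM replicate 1. Creb3, an ER-anchored factor cleaved by the same proteases, had 88.1 and 138 CPM at 25 mM, against 84.5 and 95.8 CPM at 2.5 mM (log2FC = 0.33, adjusted p = 0.637). Its gene span overlaps that of Tln1 on the opposite strand, which has 167% as many reads over its whole gene. The count of Creb3 is therefore uncertain. Its relative Creb3l2 had a log2FC of 0.07. Wfs1, wolframin, whose loss causes a syndromic diabetes with beta-cell failure, had 159.7 and 209.9 CPM at 25 mM, against 174 and 192 CPM at 2.5 mM (log2FC = 0.01, 95% interval -0.52 to 0.54, adjusted p = 0.989).

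**Figure D3:**
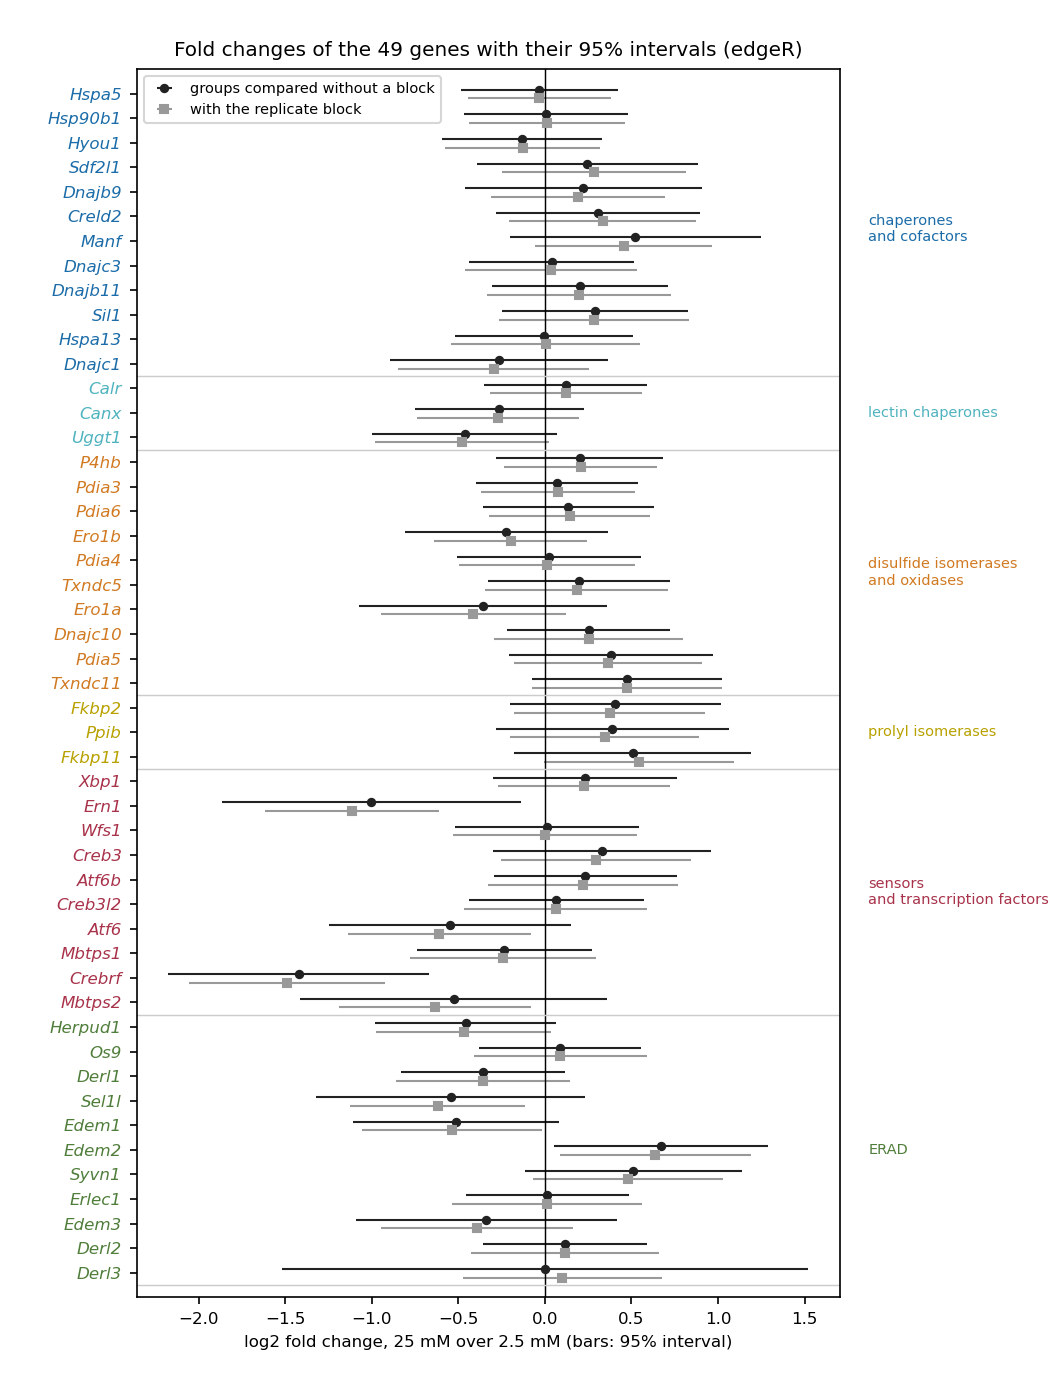
Log2 fold change of each gene, 25 mM over 2.5 mM, with its 95% interval from edgeR without (black) and with (grey) the replicate block, ordered by role and level. Intervals of Crebrf and Ern1 lie left of 0 and that of Edem2 right of 0 in both fits, and Derl3 has the widest interval without the block (-1.52 to 1.52).

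The 11 ERAD genes went both ways, with a median log2FC of 0.00126, and 0 passed with or without the block. Edem2, which in human cells starts mannose trimming of misfolded glycoproteins, had the highest log2FC of all 49 genes. It had 95.9 and 149 CPM at 25 mM, against 78.0 and 75.9 CPM at 2.5 mM (log2FC = 0.67, 95% interval 0.06 to 1.29, adjusted p = 0.454), and both 25 mM libraries were higher. It passed with the block included and the length trend subtracted (log2FC = 0.60, adjusted p = 0.0390, range over all alternatives 0.00550 to 0.998, the lowest from the fit without 25 mM replicate 1), and without 25 mM replicate 2 the log2FC was 0.33. Edem1 had 241 and 162 CPM at 25 mM, against 307 and 269 CPM at 2.5 mM (log2FC = -0.51, adjusted p = 0.503) and Edem3 had 147 and 79.7 CPM at 25 mM, against 125 and 161 CPM at 2.5 mM (log2FC = -0.34, adjusted p = 0.687). Edem1 was lower in both 25 mM libraries, whereas Edem3 was low in 25 mM replicate 2 alone. Per length, Edem1 stood at 1.35 and 0.584 times Edem2 at 25 mM, against 2.11 and 1.90 times at 2.5 mM. The exonic length is 6453 bases for Edem1 and 3463 for Edem2.

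Herpud1 encodes HERP, a scaffold of the ERAD ligase and a UPR target, and carries the ERSE-II printed above. It had 244 and 317 CPM at 25 mM, against 371 and 399 CPM at 2.5 mM (log2FC = -0.46, 95% interval -0.98 to 0.06, adjusted p = 0.497). Both 25 mM libraries were lower, by log2 ratios of -0.61 in replicate 1 and -0.33 in replicate 2, the reverse of the order of sizes in Crebrf and Ern1. Its exonic length is 2333 bases, and it passed with the block included and the length trend subtracted (log2FC = -0.62, adjusted p = 0.0136, range over all alternatives 0.0136 to 0.998). With the block alone the adjusted p was 0.317.

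The SEL1L-SYVN1 ligase showed opposite signs in its 2 core subunits. Sel1l had 409.5 and 209 CPM at 25 mM, against 489.8 and 412 CPM at 2.5 mM (log2FC = -0.54, adjusted p = 0.555). Syvn1, the ubiquitin ligase HRD1, had 104 and 161 CPM at 25 mM, against 86.3 and 99.9 CPM at 2.5 mM (log2FC = 0.51, adjusted p = 0.518). The 25 mM libraries were both lower for Sel1l and both higher for Syvn1. Per length Sel1l stood at 2.24 and 0.734 times Syvn1 at 25 mM, against 3.22 and 2.34 times at 2.5 mM. The exonic length is 8555 bases for Sel1l and 4859 for Syvn1, and the part of length was not tested. Without 25 mM replicate 2 the log2FC was -0.13 for Sel1l and 0.17 for Syvn1. Syvn1 overlaps Mrpl49 on the opposite strand, which has 30.2% as many reads.

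Of the derlins, membrane proteins of the export channel, Derl1 had 285 and 324 CPM at 25 mM, against 384 and 396 CPM at 2.5 mM (log2FC = -0.36, adjusted p = 0.536), lower in both 25 mM libraries. Derl2 had a log2FC of 0.11. Derl3 followed the replicate number rather than glucose, with 19.6 and 7.45 CPM at 25 mM, against 21.2 and 5.86 CPM at 2.5 mM. The stellate and fibroblast marker sum given above was likewise higher in replicate 1, whereas the endothelial sum was higher in replicate 2. The part of such cells in Derl3 was not tested. Its log2FC without a block, 0.0013, became 1.20 without 2.5 mM replicate 1, -0.61 without 2.5 mM replicate 2 and -0.86 without 25 mM replicate 1. The glycan-reading lectins were even, with log2FC of 0.09 for Os9 and 0.01 for Erlec1. Erlec1 had 71.3 and 73.1 CPM at 25 mM, against 70.4 and 72.7 CPM at 2.5 mM, the tightest of the ERAD genes. Opposite-strand genes overlap Erlec1 (Asb3, 14.2% as many reads) and Derl2 (Mis12, 25.1%), so these counts are uncertain as well.

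**Figure D4:**
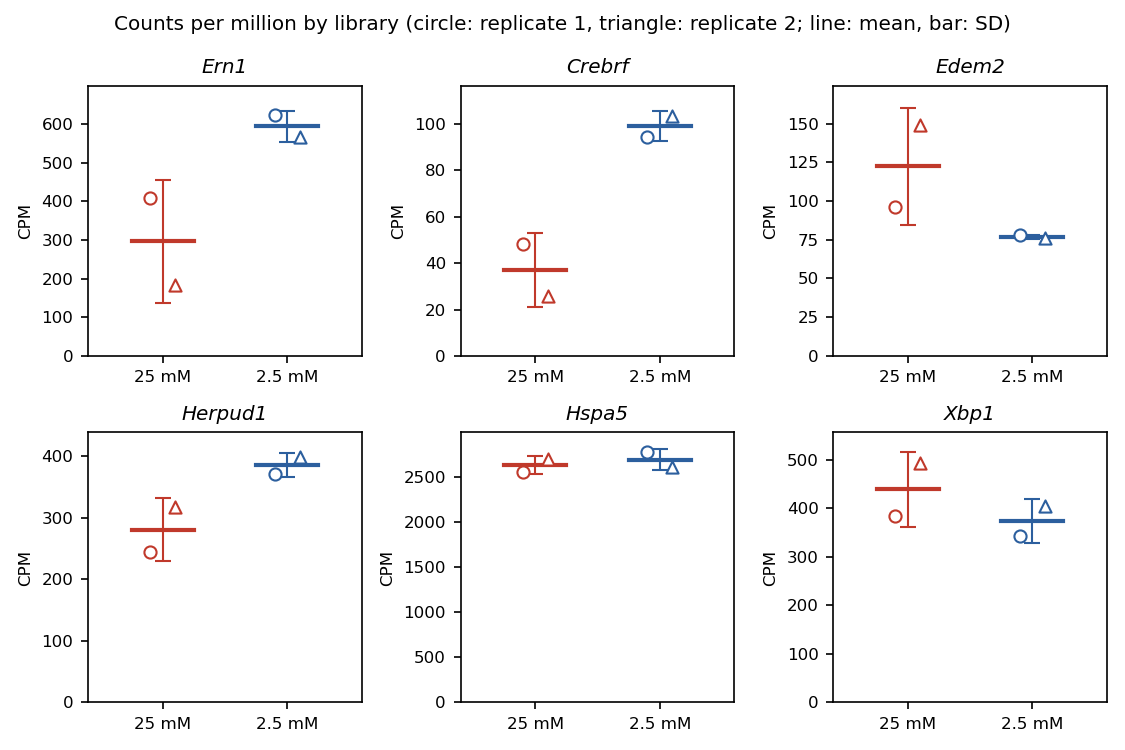
CPM in each library for 6 of the genes, 25 mM left of 2.5 mM, with replicate 1 as circles, replicate 2 as triangles, the mean as a line and the SD as a bar (n = 2 each). Ern1, Crebrf and Herpud1 are lower and Edem2 is higher in both 25 mM libraries, while Hspa5 and Xbp1 overlap between the groups.

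Gene length moved with the ratios. Across the 49 genes, which share libraries and are not independent replicates, the log2 ratio of replicate 2 had a Pearson r of -0.67 with log2 exonic length and fell by 0.54 per doubling. In replicate 1 the r was -0.16 and the slope -0.05. Over all genes the slopes were -0.29 and -0.06. The median exonic length was 7728 bases in the sensing genes, 2706 in the prolyl isomerases, 3463 in ERAD and 3778 in the chaperones. Role and length therefore differ together, and their parts in the ratios of replicate 2 were not tested. With the length trend removed and no block, 0 members passed, and the highest and lowest log2FC were 0.83 (Txndc11) and -1.17 (Crebrf).

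**Figure D5:**
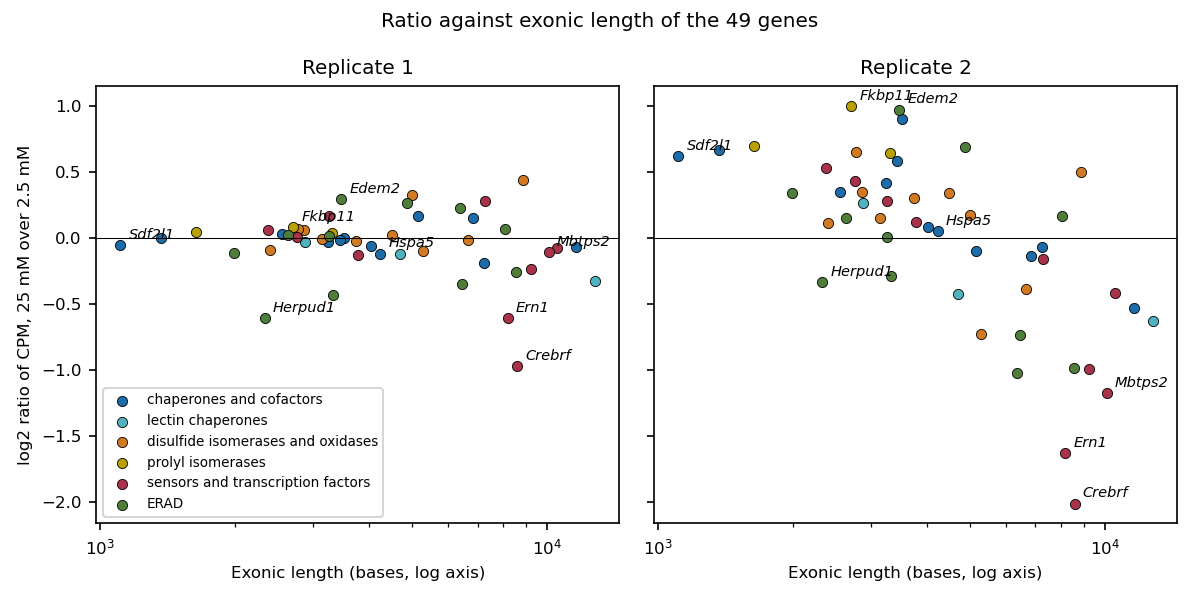
Log2 ratio of CPM at 25 mM over 2.5 mM against exonic length in bases (log axis) for the 49 genes, replicate 1 left and replicate 2 right. In replicate 2 short genes such as Fkbp11 and Sdf2l1 lie above 0 and long genes such as Mbtps2, Ern1 and Crebrf below, whereas in replicate 1 Herpud1, Ern1 and Crebrf lie lowest at different lengths.

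Genes outside the 49 in the same pathways were counted by list. Of 28 other ER folding enzymes tested, 0 passed with or without the block, with a median log2FC of 0.22. Of 9 other UPR sensors and regulators 0 passed, with a median of 0.15. Of 23 other ERAD factors 0 passed without the block and 1 with it (background 6.86%), the ligase gene Rnf5 (log2FC = 1.01, adjusted p = 0.0134), and the median was -0.03. Rnf5 had 39.0 and 53.4 CPM at 25 mM, against 34.2 and 14.9 CPM at 2.5 mM, with 2.5 mM replicate 2 the low library. Of 14 genes downstream of PERK and eIF2α, the integrated stress response, 0 passed without the block. At an unadjusted p under 0.05 in that fit, 5 were lower and 0 higher, against 1045 lower and 598 higher of 15665 genes. With the block 6 passed as lower and 0 as higher (background 6.86%). The median log2FC of the 14 genes was -0.61 without the block. The 6 included Ddit3 (CHOP), which had 66.7 and 53.4 CPM at 25 mM, against 377 and 348 CPM at 2.5 mM (with the block log2FC = -2.60, adjusted p = 2.99e-16), and Trib3, a pseudokinase gene induced by CHOP, which had 33.0 and 42.3 CPM at 25 mM, against 195 and 171 CPM at 2.5 mM (with the block log2FC = -2.29, adjusted p = 8.56e-12). The list was not uniform: the log2 ratios were -0.94 in replicate 1 and 0.02 in replicate 2 for Atf4, which encodes the main transcription factor of this response, and -0.12 in replicate 1 and -0.11 in replicate 2 for its target Asns, both named after their values were seen. Neither passed with or without the block, and Atf4 passed with the block included and the length trend subtracted (log2FC = -0.61, adjusted p = 0.0174). The difference between the lists was not tested.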

How the data were processed

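Per the labels and the study's methods, poly(A)-selected RNA libraries were cleaned with fastp, aligned with HISAT2 2.2.1 and counted per gene with featureCounts (version not given in the sources used here). The authors deposited raw read counts, not normalised, with exonic lengths. Strand setting and multi-mapping reads are not given in the sources used here. The labels name mm10, but 1 of 49 member genes had the start of GENCODE vM21, so table positions are given without a build. All value columns were matched to samples by title.

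Counts were tested in edgeR 4.0.16 (R 4.3.3) by the quasi-likelihood F test, two-sided, with TMM factors and filterByExpr (15665 genes), without a block. Adjusted p is Benjamini-Hochberg over all genes, threshold 0.05. SE is the size of log2FC divided by the square root of F, and 95% intervals use the t distribution of the fit. Log2FC is 25 mM over 2.5 mM. CPM is scaled by TMM, RPKM is CPM per kilobase of exon, and log2 ratios of CPM use a prior count of 2. The scripts were tested on simulated data. Depth was 17279505 to 19136068 counts per library. The biological coefficient of variation (edgeR) came to 20.4% with the block and 27.7% otherwise.

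The alternatives were a replicate block, DESeq2 1.42.0 with and without the block, limma-voom (limma 3.58.1), library size only, no filter on low counts, removal of the length trend (loess, span 0.5) with and without the block, and each library left out. Each mouse's islets were divided between both glucose levels, but no source says that numbers of RNA libraries mark pairs. Same-numbered libraries shared deviations from group means (Pearson r of 0.409 across genes), and the pairing is read as an inference. The blocked fit has 1 residual degree of freedom and rests on the spread over all genes. The labels call the 2 libraries of a group biological repeats, and the p-values cover no spread beyond these. In the unblocked fit a gene's own spread has 2 residual degrees of freedom, beside 5.09 drawn from all genes. In the blocked fit the degrees of freedom drawn from all genes were infinite, so its p-values do not measure the spread of the single gene.

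As for the 49 genes, the other lists and the tests were chosen with earlier results of these data known. Every member could be named. Library values are given for the member with the highest level per length in each role, for members with an unadjusted p under 0.05 or an adjusted p under 0.05 in any fit, for the 3 largest changes each way, and for those moved over 1.5-fold by 1 library. Those of further members were added after they were seen. Promoters came from RefSeq windows matched by symbol. Members without a window were Hspa13, Derl1, Hyou1, Sil1, Erlec1, Manf and Atf6.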

Additional observations from a re-analysis of the deposited data

How the results depend on the processing

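Without a block, 0 of 49 members passed the adjusted threshold in edgeR, and 0 did so in limma-voom, with library size only and with the length trend removed. With the replicate block 2 passed (Crebrf, Ern1), and likewise 2 without a filter on low counts and 2 in DESeq2 with the replicate block. DESeq2 without the block passed 1 (Crebrf), and the replicate block with the length trend removed passed 5. When 1 library was left out the count ran from 0 to 17, with 17 only without 25 mM replicate 1, where the lone 25 mM library is assumed to vary like the 2.5 mM pair. The cause was not tested. The median log2FC of the members was 0.07, and between 0.03 and 0.11 over all these fits. By the study's thresholds 3 members passed in the unblocked fit, against 9.95% of all genes. With the replicate block 6 passed, against 940 genes higher and 1799 lower among all 15665. Among the single genes, 0 calls turned direction, but some fold changes that did not pass changed sign. With the length trend removed, log2FC went from -0.13 to 0.11 for Hyou1 and from -0.26 to 0.13 for Dnajc1. Without 25 mM replicate 2, log2FC went from 0.22 to -0.17 for Dnajb9. Leaving out 25 mM replicate 1 moved the fold of 3 members by over 1.5 times (Derl3, Mbtps2, Ern1), and leaving out either 2.5 mM library moved that of Derl3. With 2 libraries per group the unblocked intervals are wide, and 33 of 49 lie within a 2-fold change either way.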
